A study of Mus musculus with 189 samples.

Results

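Transcript content was measured per whole mouse embryo, as the total signal of each gene in 1 intact embryo, at 5 stages from the 2-cell embryo to the 32-cell blastocyst. The members were the samples that the labels call embryos, 3 each of 2-cell, 4-cell, 8-cell, morula (16-cell) and blastocyst (32-cell), or 15 of the 189 samples in the series. All 156 of the 192 assays that carried a quality mark of PASS were used. The study profiled mostly single oocytes, zygotes and blastomeres by microfluidic quantitative PCR, with a panel rich in chromatin modifiers beside transcription factors and signalling genes. Embryos of every stage had F1 (C57BL/6 x DBA/2) superovulated mothers and C57BL6 fathers and grew in KSOMaa medium at low oxygen, and neither a genetic change nor a treatment separated the groups. Stage was thus the only labelled difference. The labels do not say which embryos shared a mother, a collection day, an amplification run or a chip, so that stage and chip cannot be told apart, and p-values measure the spread between these embryos.

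After fertilization a mouse embryo first lives on RNA that the oocyte made. That maternal RNA is cleared while the embryonic genome is switched on, and the cleavage divisions split the cytoplasm without growth of the whole. At the morula and blastocyst stages the outer cells become trophectoderm, which forms the placenta, and the inner cells become the inner cell mass, from which pluripotent epiblast and primitive endoderm arise. Chromatin modifiers, which write, erase or bind marks on histones and DNA, come from both the maternal store and the embryo's own genes.

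Each value began as a Ct, the PCR cycle at which a signal crosses its threshold, after reverse transcription and amplification of the whole lysed embryo in 1 tube. Content per embryo was 30 minus Ct, so that 1 unit is 1 cycle, close to a doubling of template, and 0 stands for no detection. In diluted embryonic stem cell (ESC) RNA of the same series, the median gene moved by 1.05 cycles per doubling of input over 4 samples from 25 to 200 pg (129 genes), and by 1.14 over 3 samples of a separate dilution (124 genes). These dilutions also stood apart by an offset. The labels do not say whether they shared a run, and its source was not tested. The 200 pg sample of one dilution read 2.62 cycles above the 160 pg sample of the other (median of 118 genes), where the ratio of inputs was 0.32 on the log2 scale. Whether such an offset lies between stages was not tested. A second scale, relative to controls, subtracted from each gene the mean of Hnrnpr, Ssu72 and Ube2e1 in the same embryo, the endogenous reference genes named by the study. Assays differ in efficiency, and therefore stages were compared within a gene and levels were not compared between genes.

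Content was uneven across the stages, and the morulae stood highest. The mean content of the 3 control genes was 16.31, 16.19 and 13.94 in the 2-cell embryos, 16.07, 15.49 and 16.09 in the 4-cell embryos, and 16.99, 17.46 and 16.07 in the 8-cell embryos. It was 18.16, 19.85 and 19.76 in the 16-cell embryos and 16.49, 17.54 and 18.03 in the 32-cell embryos. All 3 morulae therefore lay above each of the other 12 embryos, while the ranges of the 2-cell, 4-cell and 8-cell stages overlapped and the third 2-cell embryo read lowest of all. An exact permutation test over the 1401400 ways to share 15 embryos among 5 stages gave p = 0.00166 (the statistic is the variance between stages and has no side, and p adjusted over 6 measures was 0.00458). The median of the 127 genes detected in every embryo gave the same order, with stage means of 15.33, 15.44, 15.76, 18.50 and 16.07 (n = 3 each, exact permutation p = 0.00547, adjusted 0.00821). The number of the 156 genes with no signal also differed between stages, from 9, 10 and 16 in the 2-cell embryos to 5, 3 and 3 in the morulae and 6, 5 and 2 in the blastocysts (exact permutation p = 0.00229, adjusted 0.00458).

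**Figure D1:**
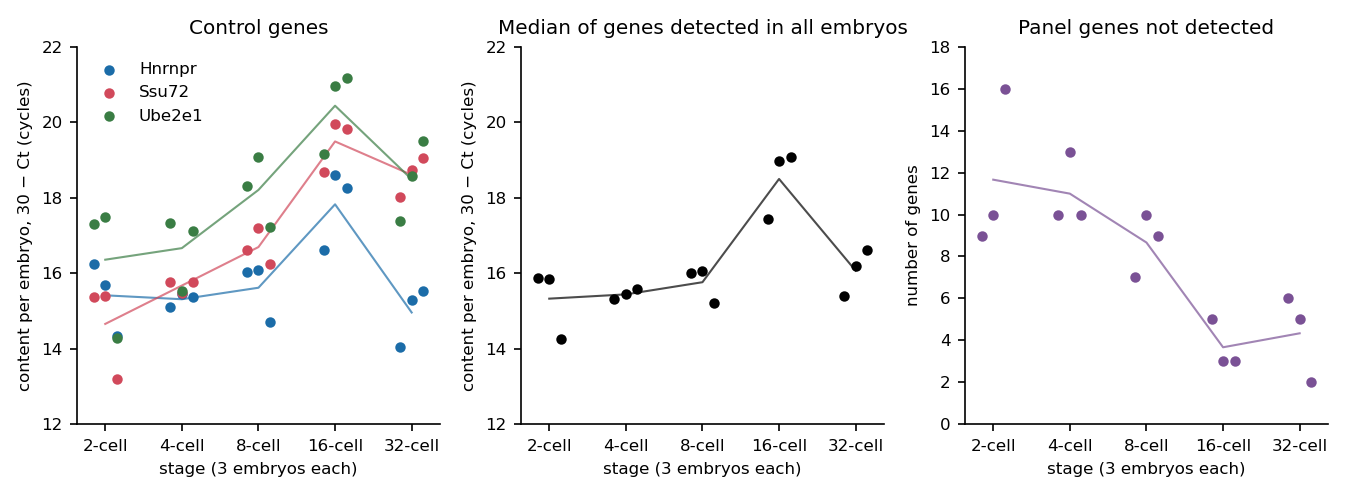
Left, content (30 minus Ct, in cycles) of the control genes Hnrnpr, Ssu72 and Ube2e1 in each of the 15 embryos by stage. Middle, the median content of 127 genes detected in every embryo, and right, the number of 156 genes not detected, 1 point per embryo; in the middle panel the 3 morulae are the highest and 1 of the 2-cell embryos is the lowest.

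The control genes themselves moved apart between the 2-cell stage and the blastocyst. Hnrnpr, which encodes an RNA-binding protein, was at a content of 16.24, 15.68 and 14.33 in the 2-cell embryos and 14.05, 15.30 and 15.53 in the blastocysts. These ranges overlapped. Ssu72, which encodes a phosphatase of the RNA polymerase II tail, was at 15.38, 15.39 and 13.21 in the 2-cell embryos and 18.02, 18.74 and 19.06 in the blastocysts. Every blastocyst exceeded every 2-cell embryo, and the difference of 3.95 ± 0.61 (SE, limma) passed the test with an adjusted p of 0.0002. Set against the mean of all 3, Hnrnpr fell by 2.33 and Ssu72 rose by 2.08. The relative scale thus depends on which controls form it, and splits of rising and falling genes are given below with each control left out.

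Between consecutive stages, the steps into and out of the morula had the most calls in content. From the 8-cell embryo to the morula, 132 of 156 genes (84.6%) rose by limma at an adjusted p below 0.05, and the median gene gained 2.79 cycles, or 6.91-fold at 1 doubling per cycle. Cell number doubles over this step, which is 1 cycle. All 3 morulae exceeded all 3 8-cell embryos for 136 genes. The reverse came next: from the morula to the blastocyst 97 genes (62.2%) passed, of which 95 fell and 2 rose, with a median of -2.46, and all 3 morulae exceeded all 3 blastocysts for 103 genes. Across the 5 stages 131 of the 156 genes had their highest mean content at the morula, whereas 67 had their lowest at the 2-cell stage.

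The early steps were small. From the 2-cell to the 4-cell embryo 1 of 156 genes (0.641%) passed, and the median over genes was 0.14, which was -0.38 without 2-cell embryo 3, the lowest. Without adjustment 5 genes had a p below 0.05. From the 4-cell to the 8-cell embryo 27 genes (17.3%) passed, of which 18 rose and 9 (5.77%) fell, with a median of 0.48, or 0.23 without 8-cell embryo 2. Over the whole interval from 2 to 32 cells, 74 genes (47.4%) passed, 56 up and 18 down, with a median of 1.14. Without 2-cell embryo 3 it was 0.62, with 48 up and 23 down.

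Relative to the control genes the morula step shrank. Between the 8-cell embryo and the morula 30 genes (19.2%) passed, of which 25 rose and 5 (3.21%) fell, with a median of 0.37. Between the morula and the blastocyst 51 genes (32.7%) passed, with 15 up, 36 (23.1%) down and a median of -0.56. From the 4-cell to the 8-cell embryo 57 (36.5%) passed, 12 up (7.69%) and 45 down (28.8%), with a median of -0.47, and from the 2-cell to the 4-cell embryo 1 gene (0.641%) passed. Over the whole interval 112 genes (71.8%) passed, with 41 up, 71 down and a median of -0.73. This split moved with the controls. It was 25 up and 90 down without Hnrnpr, 52 and 43 without Ssu72, 43 and 73 without Ube2e1, 60 and 52 against the median of the 127 genes, and 15 and 114 in the normalized table as deposited, with medians of -1.90, 0.31, -0.60, 0.40 and -3.43. No gene was called up on one scale and down on the other over this interval: 41 rose on both, 18 fell on both, 15 rose in content only and 53 fell relative to the controls only.

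The other steps shifted in the same manner. Without Hnrnpr, without Ssu72, without Ube2e1, against the median of the 127 genes and in the deposited table, the medians were -0.80, -0.44, -0.18, 0.16 and -0.48 from the 4-cell to the 8-cell embryo. The calls up and down were then 9 and 48, 11 and 35, 20 and 41, 29 and 30, and 13 and 46. At the morula step the medians were 0.27, 0.57, 0.28, 0.05 and -1.78, with 18 and 5, 32 and 5, 29 and 10, 21 and 21, and 8 and 97 calls. At the blastocyst step they were -1.04, -0.05, -0.58, -0.03 and -0.75, with 4 and 46, 21 and 11, 19 and 45, 29 and 21, and 10 and 48 calls. The deposited table alone turned the morula step downwards, and it is set against Gapdh, Hspa8 and Lmnb1, whose assays carry the mark FAIL.

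**Figure D2:**
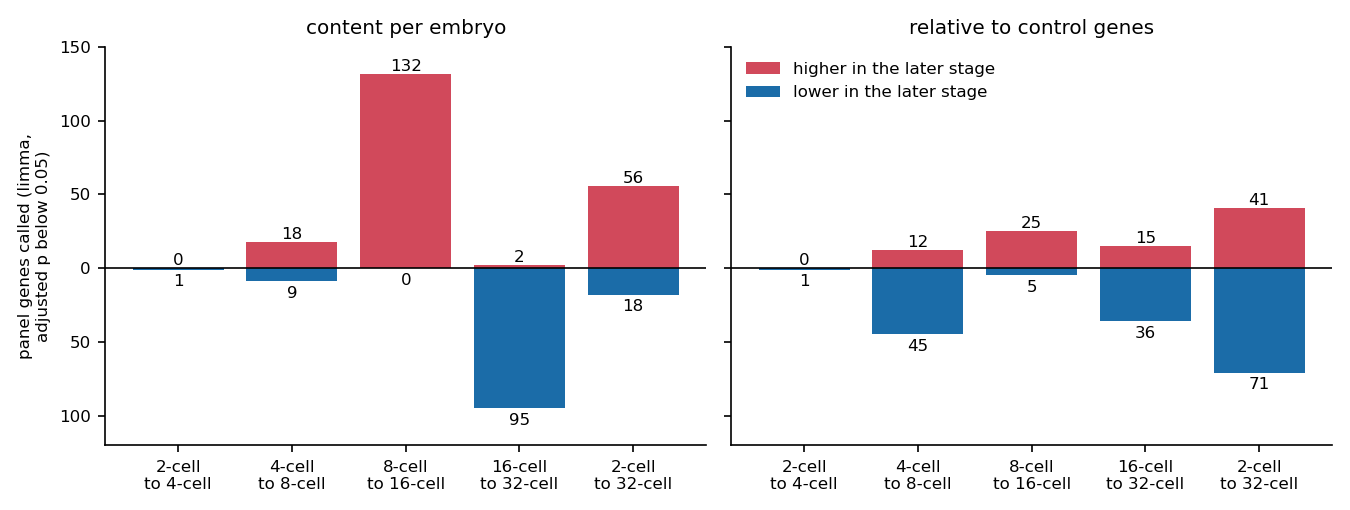
Number of the 156 genes called higher (bars above 0) or lower (bars below 0) at the later stage of each step by limma at an adjusted p below 0.05, for content per embryo (left) and relative to the 3 control genes (right). The 132 genes called higher in content from 8 to 16 cells stand against 25 relative to the controls.

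Divided by the nominal number of cells, 113 of 156 genes (72.4%) differed between the 2-cell embryo and the blastocyst, and 96 of them (61.5% of all) were lower per cell in the blastocyst, with a median of -2.86. This division lowers each difference in content by a fixed 4 cycles, also where a gene was not detected. Dlx1, detected in no blastocyst, was thus called lower per cell but not in content. The 17 genes with more content per cell were the trophectoderm genes Cdx2, Dppa1, Elf5, Gata3, Id2, Krt8 and Tspan8, the inner cell mass and endoderm genes Nanog, Zfp42, Gata6 and Sox17, the receptor gene Fgfr2, the kinase gene Lats2, and Lrpap1, Rbp2, Smyd1 and Smyd2. Single blastomeres of the series gave a second view of the per-cell level. They came from other embryos, and those at 2 cells carry titles of a separate set. They were averaged over 3, 3, 4, 2 and 7 units from 2 to 32 cells, where a unit is 1 embryo or the pooled cells of unnamed embryos. In the median gene a whole embryo exceeded a single blastomere by 3.18 cycles at 2 cells, 1.20 at 4, 2.20 at 8, 5.34 at 16 and 5.16 at 32, where the log2 of the cell number is 1, 2, 3, 4 and 5. The difference was above the log2 of the cell number at 2 and 16 cells and below it at 4 and 8, for both quartiles over genes. At 32 cells it was close to it, with quartiles of 4.72 and 5.96. Fewer cells than the nominal number and less RNA per cell cannot be told apart in whole embryos. Earlier stages lay in the range of the 2-cell embryos or above it. The control mean was 14.92 to 17.72, with a median of 17.07, in 12 oocytes arrested in the second meiotic division (MII), and 16.60 to 18.10, with a median of 16.95, in 14 zygotes.

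Replicate spread differed by stage and scale. The median SD over genes was 0.87, 0.34, 0.52, 0.83 and 0.67 cycles in content from the 2-cell stage to the blastocyst, and 0.60, 0.44, 0.42, 0.27 and 0.29 relative to the controls. The 3 repeats of 200 pg ESC RNA had a median SD of 0.18 over 139 genes. The median SD among morulae and among blastocysts was thus smaller once the controls were subtracted. Of the 2340 values, 118 (5.04%) were not detected. They fell in 29 genes, 9 of which were missing from all 3 embryos of some stage, and for these a difference depends on the baseline of 30, so that no fold is given.

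Most of the listed genes of the trophectoderm rose. Of the 10 measured, 8 rose in content from the 2-cell embryo to the blastocyst, against 35.9% of all genes, and the same 8 rose relative to the controls, against 26.3%. Hand1 and Krt19 did not pass on either scale. The median difference of the 10 was 7.49 in content, where all genes had 1.14, and 5.61 relative to the controls. It stayed positive under each other choice of controls and was smallest, 2.91, in the deposited table. At the morula step 9 of the 10 rose in content, a share near the 84.6% of all genes, with a median of 6.86 where all genes had 2.79. The paper had named Gata3, Cdx2, Krt8, Id2, Dppa1, Tspan8 and Tead4 as trophectoderm markers, and Elf5 and Hand1 as zygotic, from this same series. The list was made with this known, so that these shares describe its members and are no separate evidence of a rise.

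Gata3, a zinc-finger transcription factor of the trophectoderm, was at a content of 8.92, 8.31 and 0 (not detected) in the 2-cell embryos, 9.09, 9.60 and 7.58 in the 4-cell embryos, 14.90, 15.69 and 14.32 in the 8-cell embryos, 20.05, 21.18 and 21.84 in the morulae and 19.24, 20.31 and 20.59 in the blastocysts. The 8-cell embryos already lay above all earlier ones, and the morulae and blastocysts overlapped. Between 2 and 32 cells it rose by 14.30 ± 1.75 (SE, limma adjusted p = 4.74e-05), an amount that includes the 1 undetected embryo, and by 12.43 relative to the controls.

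Cdx2, the homeobox factor that defines the trophectoderm, was at 9.70, 6.47 and 8.33 in the 2-cell embryos and was not detected in any of the 3 4-cell embryos. It reached 13.45, 14.94 and 12.45 at 8 cells, 18.98, 20.24 and 21.19 at 16 cells and 17.80, 18.88 and 19.05 at 32 cells. The gap at the 4-cell stage made it the single gene that passed the first step (limma adjusted p = 6.59e-05), and no fold is given for it. From the 2-cell embryo to the blastocyst it rose by 10.41 ± 0.85 (adjusted p = 2.1e-06).

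Krt8, a keratin of the outer epithelium, stood at 7.75, 8.84 and 7.36 in the 2-cell embryos, 7.18, 5.93 and 7.51 in the 4-cell embryos and 12.08, 12.42 and 4.99 in the 8-cell embryos, which therefore disagreed. It reached 17.40, 19.06 and 20.04 in the morulae and 17.45, 18.33 and 18.48 in the blastocysts, with a rise of 10.11 ± 1.53 over the whole interval (limma adjusted p = 0.000176). Elf5, a factor of the placental stem cell lineage, was not detected before the morula. It gave no signal in 1 morula and read 12.52 and 11.73 in the other 2, then 10.88, 13.31 and 13.11 in the blastocysts. Krt19 had signal in 1 of 3 2-cell embryos, in no 4-cell embryo, in 1 of 3 8-cell embryos and in all morulae, at 11.05, 14.70 and 13.88. It rose at the morula step (10.37 ± 3.32, limma adjusted p = 0.0116), but not relative to the controls (adjusted p = 0.118).

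Dppa1, Id2 and Tspan8 had their highest mean content in the blastocyst. Dppa1, a gene of the early embryo, read 9.58, 10.11 and 10.20 in the 8-cell embryos, 17.37, 18.49 and 20.48 in the morulae and 18.84, 19.86 and 20.07 in the blastocysts, and its morula step of 8.81 ± 0.71 had an adjusted p of 1.84e-06 in limma. Id2, an inhibitor of helix-loop-helix factors, stepped up by 7.19 ± 0.89 at the same point. In MII oocytes the median content was already 16.93 for Dppa1 and 16.54 for Id2, so that both steps start from the 8-cell embryo. The paper counts Dppa1 as predominantly maternal and also as a trophectoderm marker. From the morula to the blastocyst none of the 10 trophectoderm genes passed in content by limma, where 62.2% of all genes did, and 1 had an unadjusted p below 0.05. Their median difference was -0.86, against -2.46 for all genes, and the differences ranged from -6.73 to 4.35. The SE was 3.65 for Hand1 and 3.32 for Krt19, where the median over all genes was 0.66. The lack of calls thus does not show that content was kept. When set against the controls, Dppa1, Elf5, Id2 and Tspan8 rose at this step, or 4 of 10 against 9.62%, with a list median of 1.04 that stayed above 0 under every choice of controls (lowest 0.56, without Hnrnpr, where 2 passed). Tead4, the DNA-binding partner of the Hippo pathway that acts upstream of Cdx2, rose by 2.96 ± 0.81 in content (limma adjusted p = 0.0093), and its rise of 1.08 relative to the controls turned to -0.081 without Hnrnpr and -1.62 in the deposited table.

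Primitive endoderm genes followed different courses. All 3 measured rose in content between 2 and 32 cells, against 35.9% of all genes, with a median of 6.10. Of these, Gata6 and Sox17 rose relative to the controls, against 26.3%, and Pdgfra did not pass (1.95 ± 0.95, limma adjusted p = 0.0843). Sox17, a late factor of this lineage, was not detected in any embryo up to 8 cells, was at 0, 13.89 and 9.14 in the morulae and at 13.71, 13.09 and 14.93 in the blastocysts. It was detected in each blastocyst and was 1 of only 2 genes that rose in content at the blastocyst step, where 1.28% of genes did (6.23 ± 2.35, limma adjusted p = 0.034), with the undetected morula in that value. Gata6, an early factor of the lineage, was at 13.32, 13.02 and 10.49 in the 2-cell embryos, 13.60, 12.04 and 14.12 at 4 cells, 17.85, 18.92 and 16.51 at 8 cells, 21.02, 22.36 and 22.59 at 16 cells and 17.86, 18.46 and 18.80 at 32 cells. It peaked in the morulae, above all other embryos, and the blastocysts overlapped the 8-cell embryos. Pdgfra, a growth factor receptor, rose at the morula step by 5.17 ± 0.92 and fell by 3.48 at the next (limma adjusted p = 0.000454 and 0.00558).

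The 11 genes of pluripotency and the inner cell mass split. In content 5 rose from the 2-cell embryo to the blastocyst, namely Nanog, Pou5f1, Sox2, Tbx3 and Zfp42, against 35.9% of all genes, and the other 6 did not pass. Relative to the controls 4 rose and 4 fell, the latter being Esrrb, Klf2, Klf4 and Pecam1. The list median of 0.98 in content became -0.90 relative to the controls, and it was 0.24 against the median of 127 genes and 0.14 without Ssu72. At the morula step 10 of 11 rose in content against 84.6% of all genes, and at the blastocyst step 8 of 11 fell against 60.9%.

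Nanog, a homeobox factor of the epiblast, was at 8.82, 10.15 and 0 in the 2-cell embryos, 9.58, 7.78 and 9.76 at 4 cells, 15.71, 15.49 and 12.95 at 8 cells, 20.41, 21.84 and 21.89 at 16 cells and 16.56, 16.90 and 16.87 at 32 cells. All 8-cell embryos exceeded all earlier ones, and the blastocysts lay between the 8-cell embryos and the morulae. It rose by 10.46 ± 1.95 over the interval (limma adjusted p = 0.00086), and 1 undetected 2-cell embryo enters that value. In oocytes and zygotes the median of Nanog was 0. Pou5f1, which encodes Oct4, was at 18.09, 17.44 and 16.40 in the 2-cell embryos, 17.95, 17.40 and 17.50 at 4 cells, 20.54, 20.71 and 19.08 at 8 cells, 23.33, 24.64 and 24.30 at 16 cells and 21.20, 22.01 and 22.26 at 32 cells. The blastocysts lay above every embryo of the first 3 stages, with a rise of 4.51 ± 0.59 in content (limma adjusted p = 6.67e-05). It was 2.64 relative to the controls and -0.063 in the deposited table.

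Nanog and Pou5f1 were lower in the blastocysts than in the morulae but stayed above their 2-cell values. At this last step Pou5f1 was called lower in content, whereas Nanog did not pass. Esrrb, an orphan nuclear receptor of the naive pluripotency network, ended below its 2-cell values, though its change over the interval did not pass in content. Esrrb was at 15.39, 16.43 and 15.65 in the 2-cell embryos, 19.00, 20.41 and 20.04 in the morulae and 14.84, 14.81 and 14.71 in the blastocysts. The 3 blastocysts were close together and lay below all 2-cell embryos and all morulae. It fell by 5.03 ± 0.71 at the last step (limma adjusted p = 0.000272), and only Xist and Pax6 had larger called falls there. Pax6, a factor of eye and brain, went from 11.44, 13.61 and 12.64 in the morulae to 0, 0 and 10.58 in the blastocysts. Klf4, a zinc-finger factor, and Pecam1, an adhesion molecule, fell at the same step, with differences of -3.27 and -3.74 (adjusted p = 0.000633 and 0.000368). Zfp42, also called Rex1, was at 17.39, 18.98 and 19.65 in the morulae and 16.90, 18.08 and 18.69 in the blastocysts, which overlap, and did not pass (-0.78 ± 0.77, adjusted p = 0.381).

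**Figure D3:**
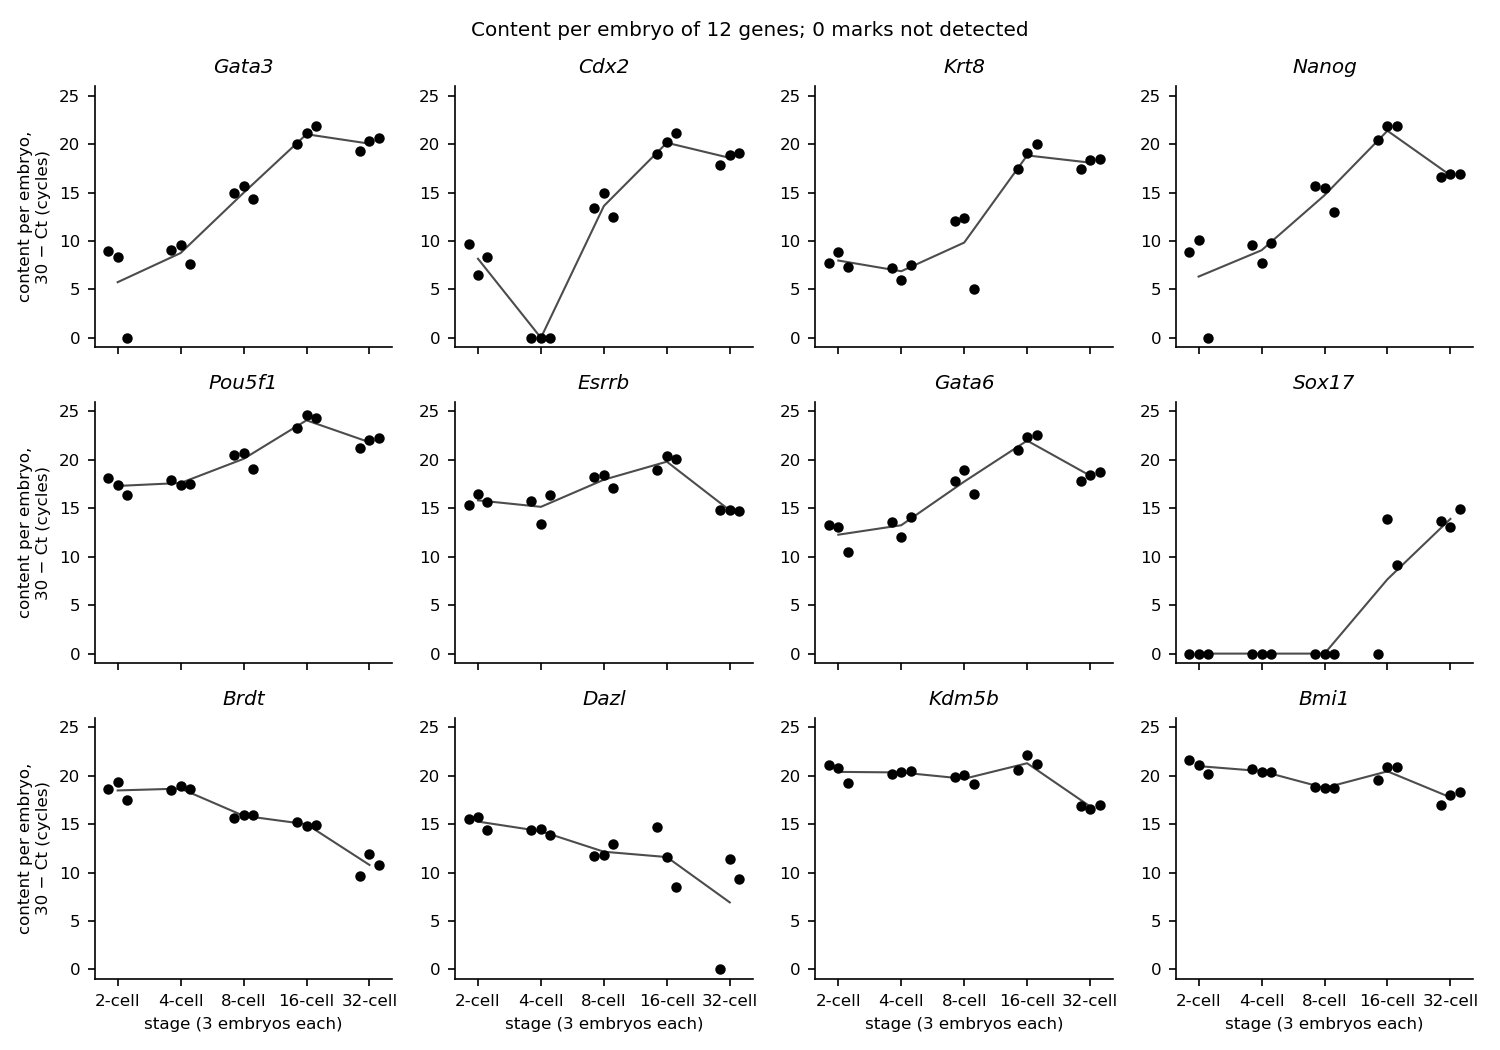
Content per embryo (30 minus Ct, in cycles) of 12 genes at the 5 stages, with 1 dot per embryo and a line through the stage means; 0 means not detected. Gata3, Cdx2 and Krt8 stay high in the blastocyst, Nanog, Pou5f1, Esrrb and Gata6 peak in the morula, Sox17 appears from the morula on, and Brdt, Dazl, Kdm5b and Bmi1 end lowest.

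Signalling genes took separate courses. Fgfr2, the fibroblast growth factor receptor of trophectoderm and endoderm, rose by 5.11 ± 0.81 between 4 and 8 cells (limma adjusted p = 0.00264), where 11.5% of genes rose, from 10.93, 7.44 and 10.04 to 14.86, 15.10 and 13.79. Fgfr2 had a median of 15.75 in MII oocytes, so that this rise starts from the 4-cell embryo and is not a rise from the oocyte. Its ligand Fgf4 rose to 13.01, 16.64 and 16.29 in the morulae and fell again by 3.29 ± 1.16 to 12.25, 11.30 and 12.54 in the blastocysts (adjusted p = 0.0256). Lats2, the Hippo pathway kinase, rose by 6.85 ± 0.74 over the interval (adjusted p = 1.88e-05). Yap1, the coactivator that this kinase restrains, was at 15.02, 14.75 and 13.42 in the 2-cell embryos and 13.76, 14.73 and 15.30 in the blastocysts. It did not pass in content (0.20 ± 0.56, limma adjusted p = 0.787). Relative to the controls Yap1 was called lower over the interval and from 4 to 8 cells, and higher from the morula to the blastocyst.

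Most of the 7 transcripts listed as germline or oocyte fell. Of these, 5 fell in content between the 2-cell embryo and the blastocyst, against 11.5% of all genes, and 6 fell relative to the controls, against 45.5%. The paper had named Dazl, Mecom, Prdm6 and Scml2 as maternal from this same series, and Brdt and Zp3 as predominantly maternal. The list was made with this known, so that these shares describe its members and are no separate evidence of a fall. The list medians were -5.83 and -7.71, and the sign was negative under every choice of controls. Brdt, a testis-type bromodomain protein that binds acetylated histones, was at 18.63, 19.32 and 17.49 in the 2-cell embryos, 18.48, 18.89 and 18.63 at 4 cells, 15.65, 15.97 and 15.96 at 8 cells, 15.23, 14.83 and 14.90 at 16 cells and 9.68, 11.95 and 10.73 at 32 cells. Each stage from 8 cells on lay wholly below the one before it, the morulae included. The loss was 7.69 cycles (SE 0.58, limma adjusted p = 1.58e-06), and in oocytes the median had been 20.43. Brdt was thus 1 of the few genes that did not share the rise at the morula step.

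Dazl, a germ cell RNA-binding protein, was at 15.56, 15.78 and 14.44 in the 2-cell embryos, 14.39, 14.52 and 13.88 at 4 cells, 11.67, 11.83 and 12.95 at 8 cells, 14.70, 11.59 and 8.50 at 16 cells and 0, 11.44 and 9.32 at 32 cells. The morulae ranged widely and overlapped the stages on both sides. Its difference of -8.34 ± 2.28 (limma adjusted p = 0.00926) includes 1 blastocyst with no signal. Scml2, an X-linked Polycomb-group gene of the germline, went from 14.30, 14.12 and 13.32 to 0, 9.24 and 8.42 (adjusted p = 0.0288). ZP3, a protein of the egg coat, was at 15.13, 14.77 and 13.35 in the 2-cell embryos and still at 13.92, 15.32 and 14.87 in the morulae, and only the blastocysts, at 12.00, 11.62 and 12.31, lay below. Dppa3, a maternal factor that protects DNA methylation, differed: it rose at the morula step by 2.50 ± 0.59 and fell by 3.88 at the next (limma adjusted p = 0.00239 and 0.000368). Mecom, a zinc-finger factor, was at 8.59, 8.41 and 7.72 in the 2-cell embryos and was detected in none of the 8-cell embryos, in 2 morulae and in 1 blastocyst.

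The upstream sequences of 4 genes described above that moved in opposite directions are shown so that they can be compared, Gata3 and Cdx2 for the rise and Brdt and Dazl for the fall. Each is the 250 bases before the annotated start, 5′ to 3′ on the gene's strand, from RefSeq on GRCm38.p6. They lie at chr2:9878601-9878850 (minus strand), chr5:147307250-147307499 (minus), chr5:107330944-107331193 (plus) and chr17:50293621-50293870 (minus), in the same order. Capitals mark matches to a GC box (GGGCGG) or a CCAAT box (CCAAT) on either strand, so that ATTGG is a CCAAT box read from the opposite strand.
Gata3: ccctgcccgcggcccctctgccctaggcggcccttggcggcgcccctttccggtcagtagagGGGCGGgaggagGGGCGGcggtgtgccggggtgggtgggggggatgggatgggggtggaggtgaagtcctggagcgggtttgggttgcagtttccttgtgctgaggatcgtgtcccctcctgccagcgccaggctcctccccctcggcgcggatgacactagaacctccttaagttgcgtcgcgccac
Cdx2: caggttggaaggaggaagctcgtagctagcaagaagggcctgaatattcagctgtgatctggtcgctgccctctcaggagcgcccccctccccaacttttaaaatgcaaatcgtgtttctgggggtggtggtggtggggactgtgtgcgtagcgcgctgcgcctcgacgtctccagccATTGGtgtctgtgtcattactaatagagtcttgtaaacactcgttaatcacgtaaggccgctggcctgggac
Brdt: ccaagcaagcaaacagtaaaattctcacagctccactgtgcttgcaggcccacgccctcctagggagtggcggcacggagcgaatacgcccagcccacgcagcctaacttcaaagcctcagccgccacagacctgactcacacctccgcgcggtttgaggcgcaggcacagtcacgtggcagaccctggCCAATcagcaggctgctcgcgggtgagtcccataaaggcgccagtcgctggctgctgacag
Dazl: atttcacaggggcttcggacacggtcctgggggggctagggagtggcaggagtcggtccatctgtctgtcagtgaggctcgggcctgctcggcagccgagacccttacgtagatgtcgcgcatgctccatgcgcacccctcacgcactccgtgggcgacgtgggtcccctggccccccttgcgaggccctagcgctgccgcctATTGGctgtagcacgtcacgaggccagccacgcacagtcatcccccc
Gata3 held 2 GC boxes, and Cdx2, Brdt and Dazl held 1 CCAAT box each. None of the 4 held the TATA box letters TATAAA, which says only that these letters are not in this window. CpG dinucleotides numbered 19 in Gata3, 13 in Cdx2, 16 in Brdt and 20 in Dazl. Over 27025 mouse promoters of the same length, 32.9% held a GC box, 34.5% a CCAAT box and 13.0% a TATA box, and the median number of CpG was 6. For the 123 panel genes with a sequence the shares were 65.0%, 43.9% and 4.07%, with a median of 20 CpG. Of the 10 genes that rose most and the 10 that fell most over the whole interval 9 each had a sequence. The risers had a GC box in 33.3%, a CCAAT box in 33.3% and a TATA box in 22.2%, and the fallers in 55.6%, 33.3% and 0%, with a median of 3 and 16 CpG. The risers with a TATA box were Smyd1 and Rbp2, and the target of the Rbp2 assay was not checked. These shares of 9 genes are descriptions.

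Histone demethylase genes fell mainly relative to the controls. Of 20 genes, 5 fell in content between the 2-cell embryo and the blastocyst, against 11.5% of all, and the other 15 did not pass. On the relative scale 16 of 20 fell, against 45.5%. The list median was -0.18 in content and -2.06 relative to the controls, and it was negative under each choice of controls, from -0.92 to -4.76. At the morula step 17 of 20 rose in content, a share near that of all genes (84.6%), and at the blastocyst step 18 of 20 fell, against 60.9% of all genes, and the Y-linked Kdm5d rose. Kdm5b, which removes methyl groups from lysine 4 of histone H3 (H3K4), was at 21.09, 20.80 and 19.30 in the 2-cell embryos, 20.14, 20.37 and 20.50 at 4 cells, 19.86, 20.10 and 19.10 at 8 cells, 20.56, 22.10 and 21.20 at 16 cells and 16.90, 16.60 and 16.99 at 32 cells. The blastocysts alone stood apart, below every other embryo. Kdm5b fell by 4.45 at the blastocyst step (SE 0.54, limma adjusted p = 0.000169), and its median in the oocytes was 14.79. Jhdm1d, also called Kdm7a, fell over the interval by 3.54 (SE 0.47, adjusted p = 6.84e-05), from 17.50, 17.19 and 15.66 to 12.92, 13.37 and 13.43. Kdm4c, Kdm5a and Kdm1b fell by 2.51, 2.25 and 1.87. Their medians in MII oocytes were 10.82, 10.19 and 20.25, and the paper counts Kdm4c and Kdm5a as predominantly zygotic. The falls of Kdm4c and Kdm5a thus start from the 2-cell embryo and are not falls from the oocyte.

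Polycomb genes were mixed within both complexes, and the complexes were not tested against each other. Polycomb repressive complex 1 (PRC1) ubiquitinates histone H2A, and 4 of its 9 measured genes fell in content over the interval, Bmi1, Pcgf1, Phc2 and Scml2, against 11.5% of all genes, while Ring1 rose, against 35.9%. On the relative scale 6 fell, against 45.5%, and the median of -2.14 was negative under each choice. Bmi1 was at 21.67, 21.08 and 20.22 in the 2-cell embryos, 20.65, 20.38 and 20.38 at 4 cells, 18.83, 18.69 and 18.68 at 8 cells, 19.51, 20.90 and 20.94 at 16 cells and 16.98, 18.04 and 18.27 at 32 cells. The 3 8-cell embryos were close together and lay below all 2-cell and 4-cell embryos, and the morulae came back above them. The fall over the interval was 3.22 (SE 0.52, limma adjusted p = 0.000289). Pcgf1, another Bmi1-type subunit, did not share the rise at the morula step (0.10 ± 0.67, adjusted p = 0.891) and fell by 3.07 at the next. Sfmbt1, a relative of the Polycomb proteins with MBT repeats, went from 17.36, 16.97 and 16.47 in the 2-cell embryos to 12.71, 12.81 and 14.85 in the blastocysts, all below, and fell by 3.47 (SE 0.60, adjusted p = 0.000437).

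Polycomb repressive complex 2 (PRC2) methylates lysine 27 of histone H3. All 7 of its genes rose in content at the morula step, where 84.6% of all genes did, and 5 fell at the next, where 60.9% did. Ezh1 and Ezh2, its alternative catalytic subunits, fell by 4.32 and 3.55 between morula and blastocyst (limma adjusted p = 0.000169 and 0.000392). Over the whole interval Jarid2 and Mtf2, cofactors that guide the complex, rose, against 35.9% of all genes, and Ezh1 fell by 2.23, against 11.5% of all genes that fell. The list median was 0.90 in content and -0.97 relative to the controls, and it was positive against the median of 127 genes (0.16) and without Ssu72 (0.07).

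The 8 genes for H3K4 methyltransferases and their partners all rose in content at the morula step, where 84.6% of all genes did. Mll1 was at 9.57, 9.74 and 8.72 in the 2-cell embryos, 10.30, 9.63 and 8.44 at 4 cells, 9.05, 0 and 6.44 at 8 cells, 14.56, 16.59 and 17.43 at 16 cells and 16.42, 16.96 and 17.70 at 32 cells. The late embryos all lay above the early ones. Its step of 11.03 ± 1.68 (limma adjusted p = 0.000273) includes 1 undetected 8-cell embryo. Over the interval 4 of the 8 rose in content, against 35.9% of all genes, and the other 4 did not pass, with a median of 2.33. On the relative scale 4 rose and 3 fell, against 26.3% and 45.5%, with a median of 0.45 that was -0.71 without Hnrnpr and -2.25 in the deposited table.

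Of the 5 SMYD genes, lysine methyltransferases with a split SET domain, Smyd1, Smyd2 and Smyd4 rose on both scales over the interval, against 35.9% of all genes in content and 26.3% relative to the controls. Smyd3 did not pass on either scale, and Smyd5 fell by 0.73 relative to the controls (SE 0.30, limma adjusted p = 0.0464). Smyd1, known from heart and muscle, had signal in 1 of 3 2-cell embryos at 8.00, in no 4-cell embryo and in 1 of 3 8-cell embryos at 8.11. It was at 11.82, 13.28 and 13.82 in the morulae and 13.73, 13.92 and 14.34 in the blastocysts, all above any earlier embryo (limma adjusted p = 0.00111 over the interval). Smyd2 rose from 0, 11.14 and 7.26 to 14.75, 16.11 and 16.89 (limma adjusted p = 0.00175). In MII oocytes the median content was already 14.83 for Smyd2 and 13.48 for Smyd4. Both rises therefore start from the 2-cell embryo and are not rises from the oocyte, and the paper counts Smyd4 as predominantly maternal. Rbp2 was detected in no embryo before the morula and in all 6 after, at 13.97, 12.56 and 10.04 and then 10.09, 8.54 and 11.60. Its symbol is also an older name of Kdm5a, which has its own assay in the panel, and the target of the Rbp2 assay was not checked. Jmjd8, a JmjC-domain gene, was detected in 1 of 3 embryos at 2 and at 4 cells and in all from 8 cells on, at 7.13, 10.38 and 6.77 at that stage.

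DNA methylation genes also took part. The DNA methyltransferases Dnmt3a and Dnmt3b rose in content over the interval by 1.92 ± 0.56 and 2.60 ± 0.75 (limma adjusted p = 0.0133 and 0.0122), and did not pass relative to the controls (0.05 ± 0.69 and 0.73 ± 0.50). Of the 2 dioxygenases that oxidize 5-methylcytosine, Tet1 rose by 2.44 ± 0.66 in content (adjusted p = 0.00886), and the maternal type Tet3 fell by 2.29 relative to the controls (SE 0.41, adjusted p = 0.000383) but not in content (-0.42 ± 0.66, adjusted p = 0.63). The list of 6 had a median of 2.18 in content and 0.30 relative to the controls, which was -0.86 without Hnrnpr and -2.40 in the deposited table.

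The remaining lists stayed near the panel as a whole in content, with medians over the interval of 1.54 for the 6 H3K9 methyltransferase genes with Trim28, 1.24 for the 3 heterochromatin protein 1 genes, 0.56 for 5 H3K36 and 1.52 for 3 H4K20 methyltransferase genes, 0.89 for 8 histone H3.3 and chaperone genes and 1.57 for 6 acetylation and deacetylation genes. In these lists 2, 1, 1, 1, 3 and 3 genes rose in content, in the same order, where 35.9% of all genes did, and the others did not pass. On the relative scale their medians were -0.33, -0.64, -1.32, -0.35, -0.99 and -0.30. All but that of the H3K36 genes turned positive against the median of 127 genes and without Ssu72. The 4 Hippo genes had medians of 1.61 and -0.27, with the same turn, and the 5 fibroblast growth factor and MAP kinase genes 3.51 and 1.64, with -1.07 in the deposited table.

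**Figure D4:**
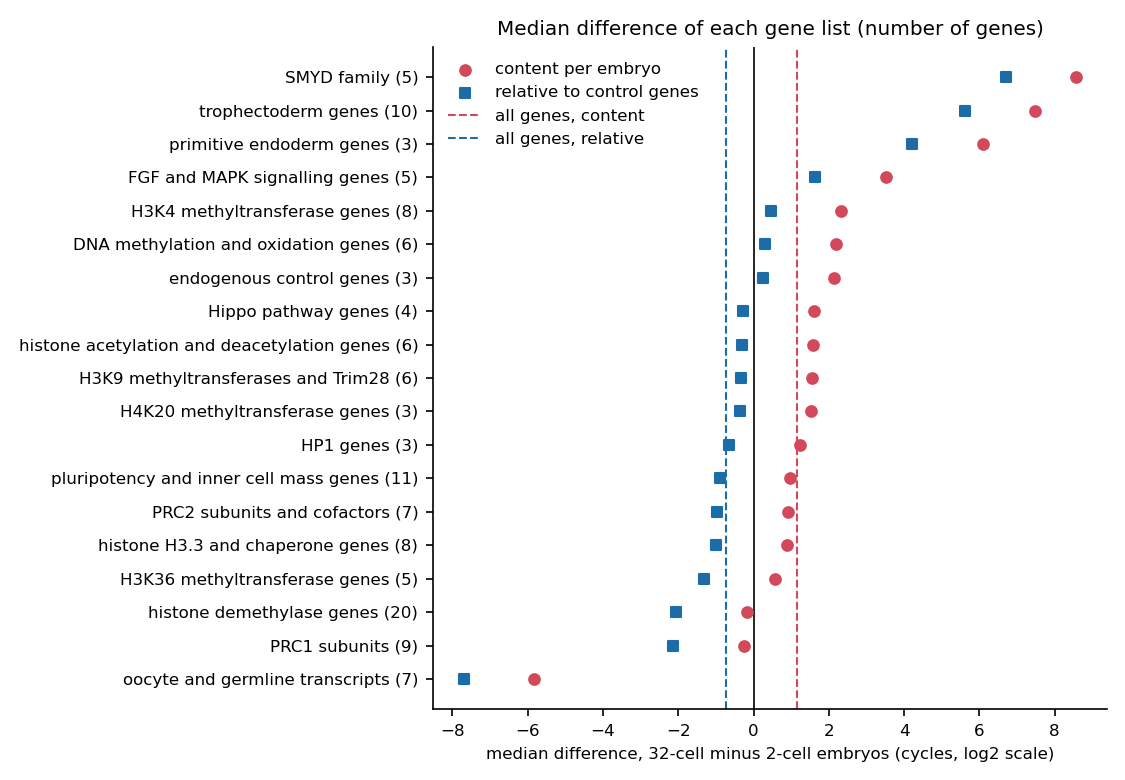
Median difference, blastocyst (32-cell) minus 2-cell, in cycles, of 19 gene lists in content per embryo and relative to the control genes, with dashed lines at the median of all 156 genes (1.14 and -0.73). The medians of the trophectoderm, primitive endoderm and SMYD lists lie far to the right on both scales, and that of the germline transcripts far to the left. In the SMYD list 3 of 5 genes rose on both scales, and its median is the value of Smyd4.

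A pair of sex-linked transcripts differed between the stages. Xist, the noncoding RNA of the silenced X chromosome, and Kdm5d, a Y-linked demethylase gene, tell female from male embryos where each is expressed. Xist without Kdm5d was found in 6 embryos, Kdm5d without Xist in 5, both in 3 and neither in 1. At the morula stage Xist was at 20.90, 22.83 and 21.60 and Kdm5d was not detected, while at the blastocyst stage Kdm5d was at 11.22, 13.22 and 14.20 and Xist at 10.19, 0 and 10.41. At 8 cells Xist was at 18.68, 18.10 and 0 and Kdm5d was not detected. The 4-cell embryos all had Kdm5d, at 12.43, 12.40 and 13.77, and 1 of them had Xist, at 7.61. No morula overlapped a blastocyst for either transcript. Limma called Xist lower at the blastocyst step in content (adjusted p = 0.0233) but not relative to the controls (adjusted p = 0.0695), and it called Kdm5d lower from 4 to 8 cells and higher from morula to blastocyst. The labels give no sex for an embryo, so that embryo sex and stage cannot be told apart in these 15 embryos for sex-linked genes. The 6 X-linked genes of the panel other than Xist had a median difference of -3.17 at the blastocyst step in content, against -2.43 for the remaining genes. Without all X-linked and Y-linked genes, an alternative chosen after seeing the data, the counts of genes called in content were 1, 26, 129 and 93 for the 4 consecutive steps and 74 for the whole interval.

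**Figure D5:**
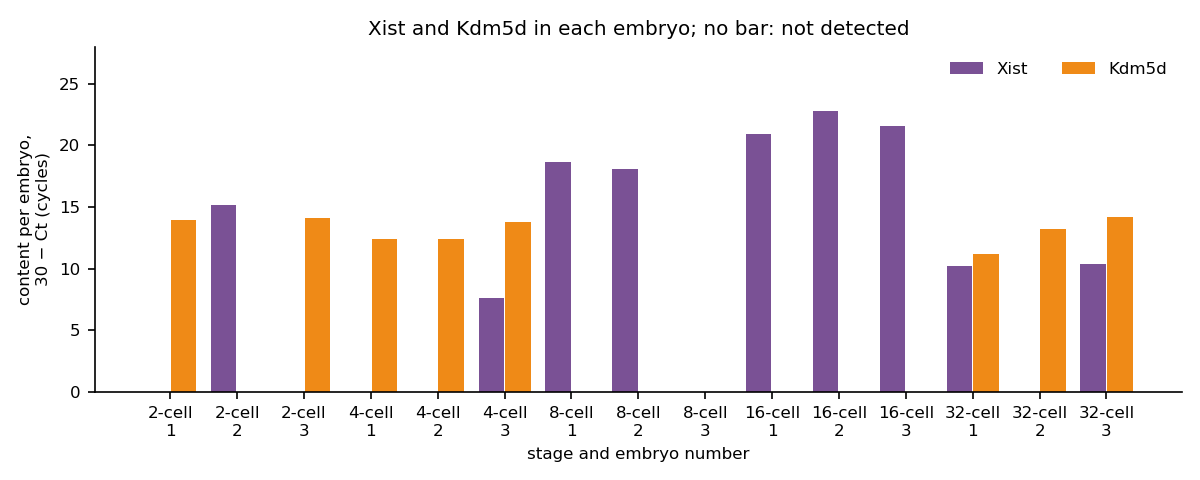
Content per embryo (30 minus Ct, in cycles) of Xist and Kdm5d in each of the 15 embryos, with a bar of height 0 where the transcript was not detected. The 3 morulae show Xist and not Kdm5d, and the 3 blastocysts show Kdm5d, with a lower Xist signal in 2 of them.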

How the data were processed

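Mouse oocytes, embryos, blastomeres and ESC RNA were assayed by the authors with quantitative PCR on BioMark chips after target amplification with the CellsDirect kit, and 15 whole embryos were used here. The authors deposited a score per assay and sample, the Ct from the Fluidigm software, with undetected assays left at the baseline, and a table of normalized log2 values. That deposited log2 table equalled 30 minus Ct set against the mean of Gapdh, Hspa8 and Lmnb1 (largest difference 1.03e-08) and not against the 3 control genes the study names (up to 7.43 apart), so that relative values were computed anew from the Ct. Failed assays (36 of 192) were left out. Numbers of reads or molecules do not exist in such data, and precision rests on 3 embryos per stage.

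All 15 embryos entered 1 limma fit (limma 3.58.1, R 4.3.3) per scale with stage as the factor, and p-values were adjusted by Benjamini-Hochberg over 156 genes within each comparison, with a threshold of 0.05. Single values were tested by exact permutation. Summaries used Python 3.11.15, numpy 2.4.6, pandas 2.3.3 and scipy 1.17.1, and plots matplotlib 3.10.9. Values are means with SE from the fit. No 2 embryos of a stage were near-identical (median absolute difference between 0.26 and 1.57 cycles). The fit was run on simulated data with known shifts in 40 of 156 genes between the 2-cell and 32-cell stages. It found 0.75%, 38.4% and 82.4% of shifts of 1, 2 and 4 cycles, and 0%, 3.15% and 3.8% of its calls were false. Genes were drawn independently there, without the shift that the genes of a real embryo can share, so that this does not measure the error in these data.

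Named genes were the 10 largest called changes in each direction over the whole interval and up to 3 per step and direction, beside list members. The members and lists were chosen with earlier results of these data known. Gene symbols matched RefSeq names in 144 cases, synonyms in 11 and neither in 1. Alternatives changed the controls, the normalization, the floor, the filter on detection, the variance trend, the replicate block and the embryos included. Samples labelled as groups of blastomeres (4 such columns of each table were not read), and 3 samples whose labels conflict, entered no comparison.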

Additional observations from a re-analysis of the deposited data

Results flagged for a closer look

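At the 2-cell stage 3 samples carried titles of the embryo form but source labels of the blastomere form, so that they belonged to no group above. Their control means were 13.76, 14.28 and 13.74, and they stood out as signal in samples that no comparison used. The 3 labelled 2-cell embryos spanned 13.94 to 16.31 and 15 single 2-cell blastomeres 11.25 to 14.32. What these samples held was not tested.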

How the results depend on the processing

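The counts of the 8-to-16-cell and 16-to-32-cell steps and of the whole interval in content stayed within 1.5 times of the reported value under every alternative run. In content from 2 to 4 cells, the 1 call became 0 with genes detected in all 15 embryos only. Relative to the controls, the count from 2 to 4 cells became 0 with values below -10 set to -10, that from 8 to 16 cells 105 in the deposited table, and that from 16 to 32 cells 32 without Ssu72. Leaving out 1 embryo at a time gave 1 to 1, 6 to 35, 116 to 135, 77 to 111 and 64 to 81 calls in content for the 4 steps and the interval, 1 to 2, 39 to 70, 22 to 46, 27 to 58 and 100 to 114 relative to the controls, and 105 to 126 per nominal cell. From 4 to 8 cells the 27 calls in content became 12, 7 and 11 without 4-cell embryos 1, 2 and 3 and 8 and 6 without 8-cell embryos 1 and 2. Relative to the controls, leaving out 2-cell embryo 2 or 3 gave 2 calls at the first step, leaving out 2-cell embryo 3 gave 46 from 8 to 16 cells, and leaving out 16-cell embryo 1, 32-cell embryo 2 or 32-cell embryo 3 gave 27, 32 and 27 at the last step. Without 2-cell embryo 3, the lowest, the interval had 71, 108 and 126 calls on the 3 scales. Of 2816 values of the named genes under alternatives, 74 lost and 29 gained their call and 6 changed direction, the latter all relative to the controls from 2 to 32 cells: Pou5f1 (-0.063), Tbx3 (-1.39), Tead4 (-1.62) and Dmap1 (-1.64) in the deposited table, and Tead4 (-0.081) and Dmap1 (-0.11) without Hnrnpr. Over all genes, the deposited table turned 17 calls made relative to the controls into the opposite call, 13 of them over the interval and 4 from 8 to 16 cells. The cause was not tested, apart from the change of controls that defines these settings. The median over genes ranged, leaving out 1 embryo at a time, from -0.38 to 0.37, 0.23 to 0.71, 2.50 to 3.26, -2.88 to -2.01 and 0.62 to 1.47 in content, and from -0.45 to -0.016, -0.63 to -0.30, 0.23 to 0.56, -0.56 to -0.43 and -0.88 to -0.48 relative to the controls. It was 0.84 in content over the interval without 32-cell embryo 3. Relative to the controls it was -0.016 and -0.48 without 2-cell embryo 3 at the first step and over the interval, -0.30 without 4-cell embryo 2 from 4 to 8 cells and 0.23 without 8-cell embryo 2 from 8 to 16 cells.

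Replicate numbers in the labels did not pair the embryos: deviations of same-numbered embryos correlated above 0.1 in 6 of 30 pairs (median -0.03). With the replicate block the counts were 1, 23, 128, 98 and 72 in content, 1, 57, 28, 51 and 111 relative to the controls and 110 per nominal cell.

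With 3 embryos a stage and a median SE of 0.66 cycles in content, an uncalled gene is not shown to be unchanged. Ct values carry tube and chip effects that the labels do not resolve, and values at the baseline are bounds.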
